A study of Mus musculus with 6 samples.

Results

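Olfactory receptor genes were taken as all genes of the deposited table whose symbol is Olfr followed by digits alone, which gave 226 of its 31763 genes. The GENCODE M21 annotation of the mouse genome (GRCm38, the same build as mm10) holds 1107 genes with such a symbol, so 20.4% of the annotated family was listed and the other 881 genes were not. The libraries came from the medial prefrontal cortex (mPFC) of male C57BL/6J mice of 8 to 10 weeks. The morphine group (3 libraries) had received morphine at 10 mg/kg i.p. and the saline group (3 libraries) saline at 10 ml/kg i.p., in training for conditioned place preference (CPP), a test in which an animal comes to prefer the chamber paired with a drug. After about a week in the home cage without drug, all mice had a retrieval test with free access to the chambers. Tissue was taken immediately after this test. Nothing in the labels says whether each library came from 1 animal or from pooled tissue, so the p-values given here measure only the spread between these libraries.

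Olfactory receptors are G protein-coupled receptors of the odorant-sensing cilia of olfactory sensory neurons in the nose. Each such neuron transcribes a single allele of a single receptor gene, and the receptor signals through the G protein subunit Gnal (Golf), adenylyl cyclase Adcy3 and a cyclic nucleotide-gated channel. The genes lie in clusters, carry their coding region in 1 exon, and fall into an older class I and a larger class II. The axons of these neurons end in the olfactory bulb, and a few of the receptors are known from tissues outside the nose.

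Total counts ranged from 17984153 to 23529592 per morphine library and from 19543377 to 22776251 per saline library. A count of 0 in 1 library allows up to 0.127 to 0.167 CPM, at 3 counts of the library's total, where CPM are counts per 1000000 counts of the library. Saline 1 stood apart from the other libraries: 13 of 14 olfactory bulb markers were over 2 times as high in it as in every other library, and their summed level was 176 to 195 CPM in the morphine libraries, 602 CPM in saline 1 and 178 and 182 CPM in saline 2 and saline 3. Excitatory markers of cortex summed to 2066 to 2144 CPM in the morphine libraries and 1902 to 2009 CPM in the saline libraries, with saline 1 lowest. The 9 markers of olfactory sensory neurons summed to 13.0 to 16.7 CPM in morphine, 22.4 CPM in saline 1 and 14.0 and 16.0 CPM in saline 2 and saline 3. Of these markers, Stoml3 was at 0 in morphine 1 and saline 2, Gfy at 0 in morphine 3 and saline 1, and Cyp2g1 at 0 in morphine 3, saline 1 and saline 2. In bulk tissue, fewer cells of a type and less RNA per cell cannot be told apart.

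Only 12 of the 226 genes had at least 10 counts in at least 3 libraries, the filter used for testing. Each is given by a stretch of its coding strand around the codons for aspartate, arginine and tyrosine, a triplet common in this receptor family. Each line gives 51 bases read from GENCODE M21 on GRCm38, 5′ to 3′, with the 3 codons at the place of the triplet in capitals.
Olfr1564 (chr17:33215950-33216000, minus strand): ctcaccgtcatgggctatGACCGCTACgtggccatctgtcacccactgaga
Olfr78 (chr7:102742612-102742662, minus strand): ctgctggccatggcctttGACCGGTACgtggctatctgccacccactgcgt
Olfr287 (chr15:98207972-98208022, minus strand): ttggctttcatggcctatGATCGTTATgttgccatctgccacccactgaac
Olfr316 (chr11:58758009-58758059, plus strand): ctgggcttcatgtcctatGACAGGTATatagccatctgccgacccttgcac
Olfr691 (chr7:105337316-105337366, minus strand): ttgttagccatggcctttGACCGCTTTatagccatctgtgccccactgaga
Olfr111 (chr17:37530321-37530371, plus strand): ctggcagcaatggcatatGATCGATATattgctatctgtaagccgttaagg
Olfr464 (chr11:87914512-87914562, minus strand): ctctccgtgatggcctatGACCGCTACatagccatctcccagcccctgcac
Olfr690 (chr7:105329792-105329842, minus strand): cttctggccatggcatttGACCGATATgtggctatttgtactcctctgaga
Olfr267 (chr4:58785328-58785378, minus strand): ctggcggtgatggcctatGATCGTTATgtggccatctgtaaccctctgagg
Olfr539 (chr7:140667658-140667708, plus strand): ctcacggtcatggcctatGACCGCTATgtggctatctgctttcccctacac
Olfr1033 (chr2:86041653-86041703, plus strand): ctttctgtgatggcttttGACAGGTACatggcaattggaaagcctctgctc
Olfr560 (chr7:102753529-102753579, minus strand): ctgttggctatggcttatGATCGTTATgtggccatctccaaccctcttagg

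The stretches were placed by a search for aspartate followed by arginine, so only the last residue of the triplet was free to differ. This residue was the same in 11 of the 12 genes, the exception being Olfr691. The 3 codons were spelled in 9 ways over the 12 genes, the most common of them in 3 genes. Of the 51 positions, 18 held the same base in all 12 genes, some of them set by this search. Over the whole coding region the 66 pairs of genes were identical at a median of 54.4% of bases and 37.3% of residues. The closest pair was Olfr690 and Olfr691, class I neighbours on chromosome 7, at 67.5% of bases and 70.3% of residues. Coding bases made up only 8.33% to 44.96% of the annotated exon length of the 12, so that most of the length in which reads could be counted was untranslated.

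Most of the listed genes were barely counted. Their counts summed to 4084 over the 6 libraries, with a median of 2 per gene. A single count in a single library was all that 86 genes had, 106 had 2 to 9 counts, 26 had 10 to 99 and 8 had 100 or more. Counts were found in all 6 libraries for 27 genes and in 1 library for 122. The list was led by Olfr1564, which held 32.5% of all counts of the family, while the highest 3 genes held 48.7% and the 12 tested genes 78.0%. The last 2 genes inside the filter, Olfr1033 and Olfr560, had 65 and 58 counts in all, and the first outside it, Olfr110, Olfr46 and Olfr558, had 30, 30 and 28.

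**Figure D1:**
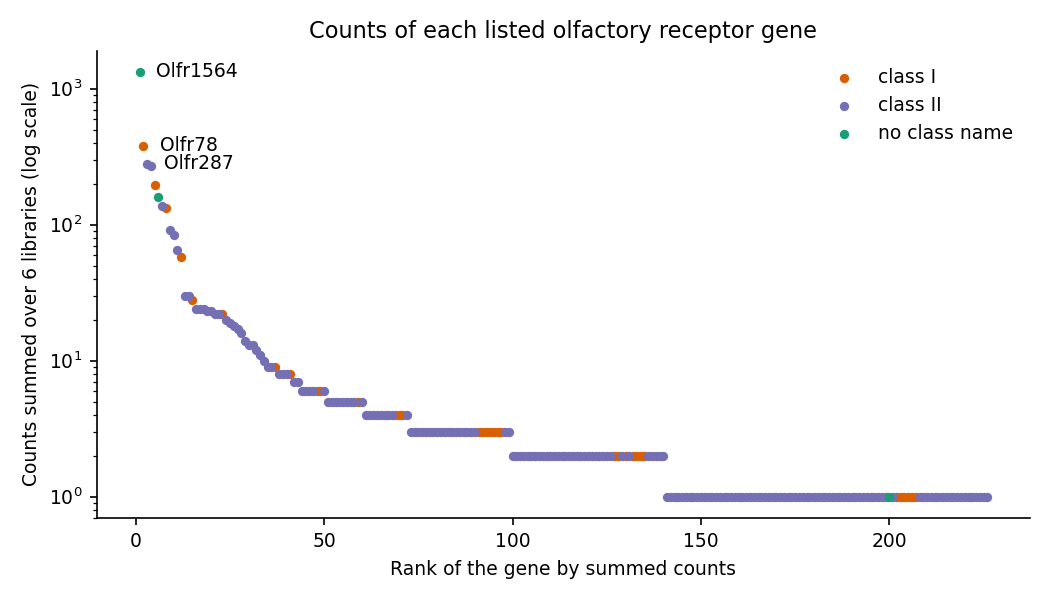
Counts of the 226 listed olfactory receptor genes, summed over the 6 libraries (log scale), against their rank, coloured by receptor class. Olfr1564 stands at 1328 counts, ahead of Olfr78 at 381 and Olfr287 at 281, and the row at the bottom holds the 86 genes with 1 count.

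In FPKM, which divides by exon length and so allows genes to be set side by side, Olfr1564 averaged 1.99 ± 0.508 (SD, n = 6 libraries) and was the only member with a mean of at least 1, where 14622 of the 31763 genes of the table reached it. It ranked at place 11907 of the table. Olfr287, Olfr316 and Olfr691 followed at 0.840 ± 0.156, 0.807 ± 0.251 and 0.703 ± 0.237 FPKM (SD, n = 6), and these neighbours differed by less than their spread. Olfr690, Olfr78, Olfr464 and Olfr111 lay between 0.471 and 0.521 FPKM, and the remaining 4 tested genes between 0.0594 and 0.221. Mean levels of at least 0.1 FPKM were reached by 13 members.

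Chromosome 17 held 39.2% of the counts, most of them from Olfr1564, chromosome 7 held 27.6%, chromosome 11 12.5% and chromosome 15 7.27%. Chromosome 2 has the most annotated members, 282, of which 37 were listed with 3.87% of the counts. By the names that RefSeq carries as synonyms, 35 of 126 class I genes (27.8%) and 188 of 958 class II genes (19.6%) were listed. In the filter, 4 genes were class I and 6 class II, and 2 (Olfr1564 and Olfr111) had no class name. Class I genes took 22.2% of the counts. Listed members had a median of 3413.5 annotated exon bases, against 2815 for members not listed.

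Other receptor families of the sensory organs were also listed in part: 22 of 207 vomeronasal type 1 genes (10.6%), 30 of 121 vomeronasal type 2 genes (24.8%), 2 of 15 trace amine-associated receptors and 8 of 38 taste receptors. Olfactory receptor pseudogenes (ps suffix) were listed in 36 of 299 cases. Keratin-associated proteins of hair, a family not known from brain, were listed in 1 of 53 cases, with 1 count. Over all 6 libraries, counts per annotated gene came to 3.69 for olfactory receptor genes and 1.07 for the pseudogenes. They came to 50.7 for vomeronasal type 2, 1.01 for vomeronasal type 1 and 6.76 for taste receptors. Trace amine-associated receptors had 0.133 and keratin-associated proteins 0.0189. These are counts not corrected for length.

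Summed over all 226 genes, the family took 573, 604 and 640 counts in morphine 1 to 3 and 741, 753 and 773 counts in saline 1 to 3. Every morphine library was below every saline library in these raw sums. Divided by depth, the sums were 31.3 CPM (95% Wilson interval 28.8 to 33.9), 33.6 CPM (31.0 to 36.4) and 27.2 CPM (25.2 to 29.4) in morphine 1 to 3. They were 32.5 CPM (30.3 to 35.0), 35.4 CPM (32.9 to 38.0) and 39.6 CPM (36.9 to 42.4) in saline 1 to 3. The intervals cover counting error only. In CPM the groups overlapped, since morphine 2 lay above saline 1, and the intervals of morphine 1, morphine 2, saline 1 and saline 2 overlapped one another. Morphine averaged 30.7 ± 3.23 CPM and saline 35.8 ± 3.53 CPM (SD, n = 3 each), a log2 ratio of -0.22, and the difference of -5.13 CPM was larger than either SD. No p-value is given for this sum, since its members were chosen as a group. Without saline 1 the saline mean was 37.5 CPM, the log2 ratio was -0.29, and the groups no longer overlapped.

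Olfr1564 alone made up 25.8% to 38.9% of the sum in the morphine libraries and 27.5% to 37.8% in the saline libraries. Without it the sums were 23.2, 20.5 and 19.2 CPM in morphine 1 to 3 and 23.6, 22.0 and 25.9 CPM in saline 1 to 3. Morphine 1 was then above saline 2, and the log2 ratio was -0.18, or -0.19 with saline 1 left out as well. With the 20 genes that share exon bases with another gene left out, the log2 ratio was -0.33, and all morphine libraries (20.2 to 25.1 CPM) were below all saline libraries (25.99 to 31.4 CPM). The 214 genes outside the filter together took 5.82 to 7.97 CPM in morphine and 6.96 to 8.17 CPM in saline, with overlap. In FPKM, which are the same counts divided by exon length and no independent measure, the sums were 7.88 to 9.004 in morphine and 9.34 to 11.1 in saline, with every morphine library below every saline library.

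By class, class I genes summed to 7.51 ± 1.36 CPM in morphine and 7.43 ± 2.06 CPM in saline (SD, n = 3 each), with a log2 ratio of 0.016. Class II genes summed to 12.7 ± 1.41 CPM in morphine and 14.6 ± 0.727 CPM in saline, with a log2 ratio of -0.19. Class II sums overlapped between the groups, as morphine 1 at 14.3 CPM lay above saline 2 at 13.8 CPM. The 3 genes with no class name, Olfr1564 and Olfr111 among them, had the log2 ratio furthest below 0, at -0.40. They summed to 10.4 ± 2.76 CPM in morphine and 13.8 ± 1.35 CPM in saline. These sums also overlapped, as morphine 2 at 13.6 CPM lay above saline 1 at 12.3 CPM.

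The number of members with at least 1 count was 83, 74 and 77 in morphine 1 to 3 and 85, 87 and 84 in saline 1 to 3. No morphine library reached the lowest saline library in this number, and the means were 78.0 ± 4.58 in morphine and 85.3 ± 1.53 in saline (SD, n = 3 each). Deeper libraries count more genes. At the depth of the shallowest library, morphine 2, the expected numbers were 82.3, 74.0 and 68.5 in morphine 1 to 3 and 76.4, 80.8 and 80.6 in saline 1 to 3. Morphine 1 was then above all 3 saline libraries. With at least 2 counts required, the numbers were 48, 42 and 44 in morphine and 47, 50 and 42 in saline.

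**Figure D2:**
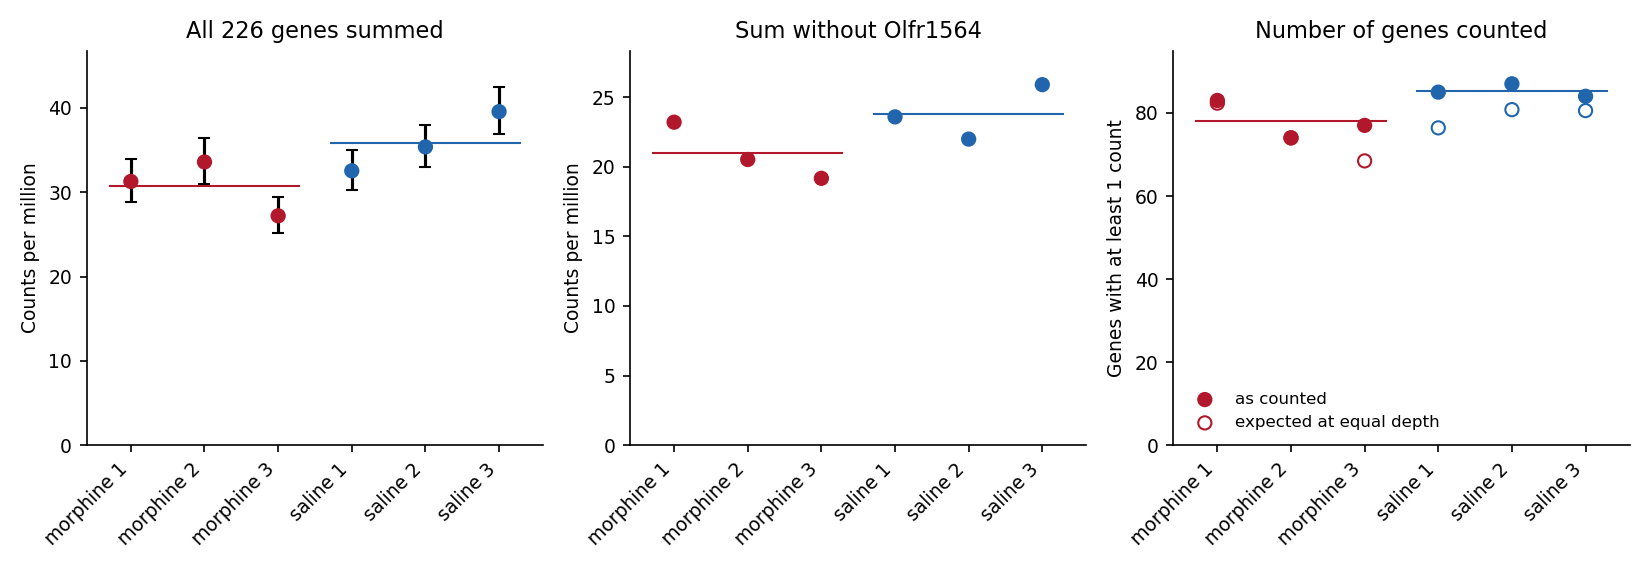
Left, CPM summed over the 226 olfactory receptor genes in each library, with 95% Wilson intervals for counting error. Middle, the same sum without Olfr1564. Right, the number of these genes with at least 1 count, as counted (filled) and in expectation at the depth of the shallowest library (open). Morphine libraries are red and saline libraries blue, horizontal lines are group means, and morphine 2 (33.6 CPM) lies above saline 1 (32.5 CPM) on the left.

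Tested gene by gene with edgeR's quasi-likelihood F test (two-sided, Benjamini-Hochberg adjusted over the 18970 genes tested), 0 of the 12 members passed an adjusted p of 0.05, and the smallest adjusted p was 0.62. Over all genes 0% passed (0 of 18970), while an unadjusted p under 0.05 was found for 2.77% with a higher and 4.96% with a lower level in morphine. At that threshold, 0 of the 12 were higher and 1 was lower, Olfr111. DESeq2 called 16 genes in the whole table at an adjusted p under 0.05 and 0 of the 12, though it gave no adjusted p to 10 of them. None of the 12 kept its morphine and saline CPM values apart, where 5.04% of all tested genes were higher and 8.41% lower in every morphine library. The log2 fold change was below 0 in 9 of the 12, with a median of -0.26 beside -0.0093 over all tested genes. The share of all tested genes below 0 was not determined. Of the 9, Olfr691, Olfr690, Olfr1033 and Olfr560 changed sign in at least 1 fit with 1 library left out. Standard errors ran from 0.21 to 0.52, and the widest 95% interval, that of Olfr560, from -1.24 to 1.05.

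**Figure D3:**
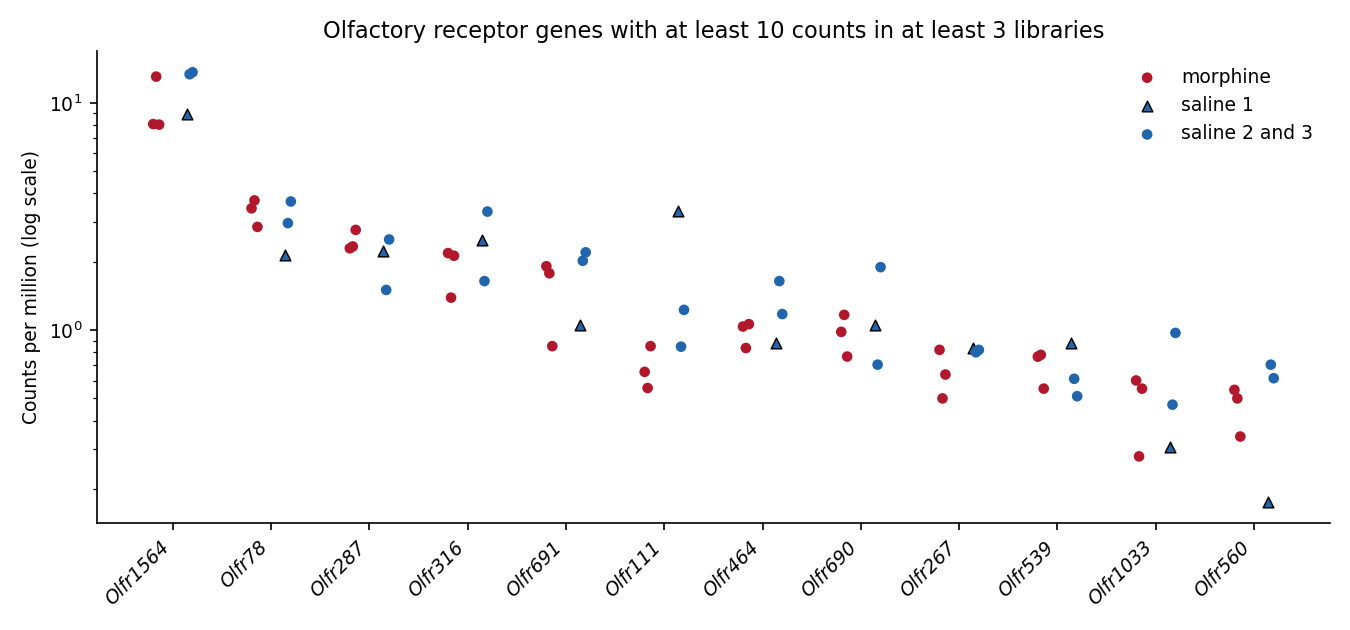
CPM (log scale) of the 12 olfactory receptor genes that passed the count filter, 1 point per library, with morphine left (red) and saline right (blue) for each gene and saline 1 as a triangle. Saline 1 is the highest library for Olfr111, at 3.34 CPM, and the lowest for Olfr560, at 0.176 CPM.

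Olfr1564 (chr17:33211206-33221690, minus strand) was counted 148, 235 and 189 times in morphine 1 to 3 and 204, 285 and 267 times in saline 1 to 3. In CPM this was 8.08, 13.1 and 8.03 in morphine and 8.96, 13.4 and 13.7 in saline. Morphine 2 was the outlying morphine library and saline 1 the outlying saline library, and the groups overlapped. In the edgeR fit the normalized level was 9.78 ± 2.76 CPM in morphine and 11.96 ± 2.74 CPM in saline (SD, n = 3 each). Its log2 fold change was -0.29 (standard error 0.21, edgeR unadjusted p = 0.20, adjusted p = 0.73). Without saline 1 the log2 fold change was -0.48 (edgeR unadjusted p = 0.0057, adjusted p = 0.17), and without morphine 2 it was -0.54 (edgeR unadjusted p = 0.025). With any other library left out it lay between -0.20 and -0.17, and did not pass the unadjusted threshold. Of the 100-base runs in its transcripts, 6.01% also occur in transcripts of other genes, among them Cplx2, Fcgr2b, Ntrk3, Olfr1039, Olfr239 and Olfr55. Of the 12 tested genes, 8 share at least 1 such run with another gene, and 4 share over 10% of theirs.

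Olfr111 (chr17:37508030-37532449, plus strand) lies in the receptor cluster of the major histocompatibility region. It was counted 12, 10 and 20 times in morphine 1 to 3 and 76, 18 and 24 times in saline 1 to 3. Saline 1 alone held 47.5% of its counts, and in CPM morphine 3 (0.850) lay above saline 2 (0.845). The log2 fold change was -1.35 (standard error 0.50, 95% interval -2.46 to -0.25, edgeR unadjusted p = 0.021, adjusted p = 0.62). Without saline 1 it was -0.55 (edgeR unadjusted p = 0.17). The neighbouring Olfr110 shares 14.8% of the 100-base runs of Olfr111. It had 5, 2 and 4 counts in morphine and 12, 6 and 1 in saline, so that its highest count was also in saline 1.

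Olfr78, a class I receptor for short-chain fatty acids such as acetate and propionate that is known from kidney, blood vessels and the carotid body, had 63, 67 and 67 counts in morphine 1 to 3 and 49, 63 and 72 counts in saline 1 to 3. The groups overlapped (log2 fold change 0.20, standard error 0.23, edgeR unadjusted p = 0.39). It was among the 3 members with a fold change above 0, at 0.012 without saline 1 and 0.40 without saline 3. Olfr560, a class I gene that shares 926 exon bases with Olfr78 on the same strand, had 10, 9 and 8 counts in morphine and 4, 15 and 12 in saline. The sources used here do not say how reads in these shared bases were assigned, so the values of both genes are uncertain.

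Among the other members above 0, Olfr287, a class II gene on chromosome 15, had 42, 42 and 65 counts in morphine and 51, 32 and 49 in saline (log2 fold change 0.27, standard error 0.24, or 0.088 without saline 2 and 0.43 without saline 3). It shares 290 exon bases with the overlapping gene Gm44579 on the same strand, and 28.4% of its 100-base runs occur in transcripts of other genes. The class II gene Olfr539 had 14, 14 and 13 counts in morphine and 20, 13 and 10 in saline (log2 fold change 0.060, standard error 0.35). In both genes the highest saline library was above the lowest morphine library. Olfr539 shares 612 exon bases with Olfr540-ps1 on the opposite strand, and 6.38% of its 100-base runs occur in transcripts of other genes.

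Olfr316, a class II gene on chromosome 11, had 40, 25 and 50 counts in morphine and 57, 35 and 65 in saline (log2 fold change -0.36, standard error 0.29). The fold change was -0.58 without saline 2 and -0.092 without saline 3. The class I neighbours Olfr690 and Olfr691 did not order the libraries alike. Olfr691 had 35, 32 and 20 counts in morphine and 24, 43 and 43 in saline, and Olfr690 had 18, 21 and 18 in morphine and 24, 15 and 37 in saline. Neither shares a 100-base run with another gene's transcript. Their log2 fold changes were -0.21 (standard error 0.37) for Olfr691 and -0.31 (standard error 0.38) for Olfr690.

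Olfr464 had 19, 15 and 25 counts in morphine and 20, 35 and 23 in saline, and Olfr267 had 15, 9 and 15 in morphine and 19, 17 and 16 in saline, both at a log2 fold change of -0.30. With 1 library left out, the fold change ran from -0.51 (without saline 1) to -0.030 (without saline 2) for Olfr464 and from -0.49 (without morphine 1) to -0.15 (without morphine 2) for Olfr267. Olfr1033, the only tested member on chromosome 2, had 11, 5 and 13 counts in morphine and 7, 10 and 19 in saline. All of these overlapped between the groups, with edgeR unadjusted p-values of 0.36, 0.37 and 0.66 for Olfr464, Olfr267 and Olfr1033. With saline 1 left out, 4 of 12 tested members (Olfr1564, Olfr464, Olfr560 and Olfr691) were lower in every morphine library than in saline 2 and saline 3, where 15.5% of all tested genes were, and 0 were higher, where 12.1% were. In that fit an unadjusted p under 0.05 was found for 1 of the 12 with a lower level, Olfr1564, beside 7.53% of all genes, and for 0 with a higher level, beside 4.14%. Of the 12, 0 passed the adjusted threshold, which 186 of 18671 genes (0.996%) passed.

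**Figure D4:**
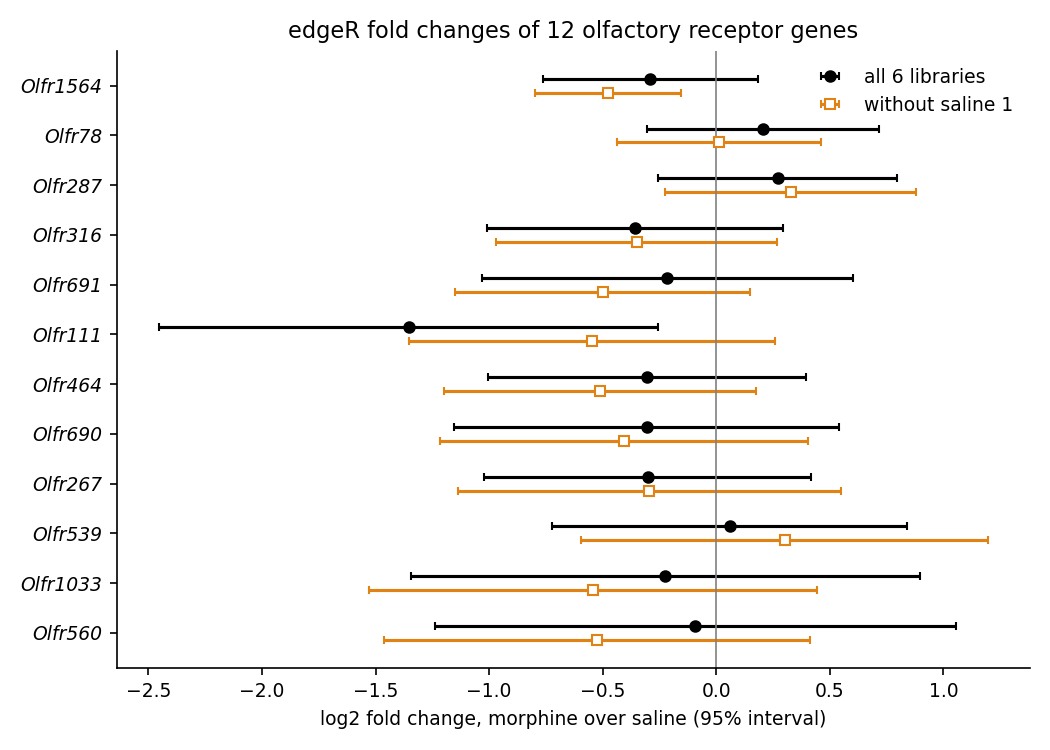
Log2 fold changes, morphine over saline, of the 12 tested olfactory receptor genes with 95% intervals from edgeR, over all 6 libraries (black circles) and without saline 1 (orange squares). With all libraries only the interval of Olfr111 lies clear of 0, and without saline 1 only that of Olfr1564 does.

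Several members were counted chiefly in saline 1. Among the 72 members with at least 4 counts in all, 7 had 80% or more of them in saline 1, against 0 in each morphine library, 1 in saline 2 and 2 in saline 3. The share of all genes in the table with such counts was not determined, so these numbers have no background beside them. Olfr32, a class II gene on chromosome 2, had 1, 0 and 1 counts in morphine 1 to 3 and 20, 0 and 0 counts in saline 1 to 3. Olfr1259 had 7 of its 8 counts there, Olfr1270 and Olfr142 4 of 5 each, Olfr1344 and Olfr45 4 of 5 each, and Olfr112, near Olfr111 in the cluster on chromosome 17, 4 of 4.

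Olfr1259, Olfr32, Olfr1270 and Olfr142 lie in 1 stretch, chr2:89940532-90271032, a window drawn after their values had been seen. It holds 14 annotated olfactory receptor genes, 8 of them listed, with 1, 0 and 4 counts in morphine 1 to 3 and 40, 0 and 3 counts in saline 1 to 3. Olfr1259, Olfr32, Olfr1270 and Olfr142 had been picked for their counts in saline 1. The high sum of the window in that library follows in part from this choice. Saline 1 was also the library with the high olfactory bulb markers. All 226 members together, however, were lowest among the saline libraries in saline 1, at 32.5 CPM. Vomeronasal type 1 genes had 17, 18 and 17 counts in morphine and 99, 34 and 24 in saline, highest in saline 1. The vomeronasal type 2 family, larger in counts though not in annotated genes, went the other way and was lowest in saline 1. It took 43.2, 52.6 and 46.7 CPM in morphine 1 to 3 and 34.8, 65.9 and 56.6 CPM in saline 1 to 3. Of the 9 markers of olfactory sensory neurons, Omp, the olfactory marker protein, had 25, 35 and 18 counts in morphine and 141, 20 and 27 in saline, and Stoml3 had 0, 3 and 1 in morphine and 22, 0 and 3 in saline. These 2 markers were over 2 times as high in saline 1 as in every other library and the other 7 were not, with Gfy and Cyp2g1 at 0 there. Whether bulb or nasal tissue has a part in these counts was not tested.

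**Figure D5:**
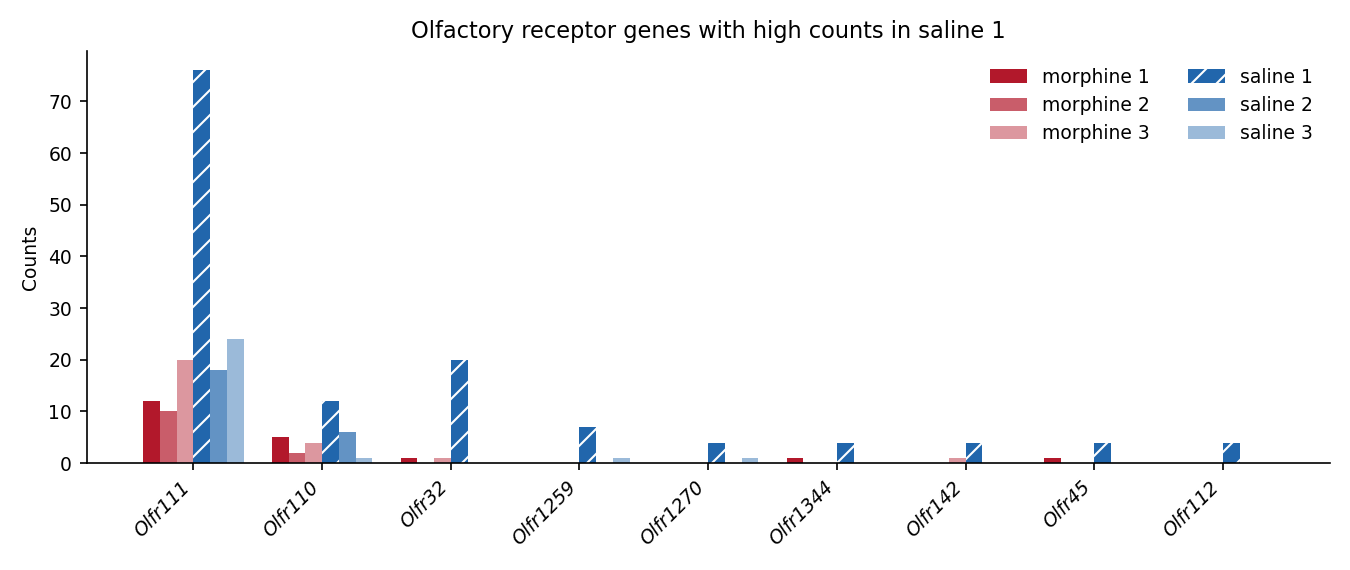
Counts in each library of Olfr111, its neighbour Olfr110 and the 7 olfactory receptor genes with at least 80% of their counts in saline 1 (hatched). Olfr111 reached 76 counts and Olfr32 20 counts in saline 1, against at most 24 and 1 in any other library.

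Members with a known function outside these data were largely at the floor. Of 12 such genes, 5 were listed: Olfr78 as above, Olfr558, Olfr1393, Olfr544 and Olfr2. Olfr558, a fatty acid receptor known from vascular smooth muscle, had 3, 7 and 3 counts in morphine and 8, 4 and 3 in saline. The 4 markers of vascular smooth muscle summed to 7.39 to 10.5 CPM in morphine and 5.88 to 9.66 CPM in saline, and of 4 markers of testis germ cells, where many olfactory receptor genes are also transcribed, 1 was listed, Prm1, with at most 2 counts in any library. Olfr1393, known from the proximal tubule of the kidney, had 3, 2 and 6 in morphine and 5, 3 and 0 in saline. Olfr544, a receptor for azelaic acid, had 0, 1 and 0 in morphine and 0, 1 and 1 in saline, and Olfr2, the octanal receptor, had 1 count, in saline 3. The other 7 (Olfr16, Olfr17, Olfr73, Olfr124, Olfr151, Olfr160 and Olfr1507) were not listed.

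Several signalling partners of the receptors, which also serve other neurons, had far higher counts. Of 13 genes of odorant signalling, all were listed and 10 were tested; an unadjusted p under 0.05 was found for 1 higher and 0 lower genes, beside 2.77% and 4.96% of all tested genes, and 0 passed the adjusted threshold, at a median log2 fold change of -0.059. The one was Adcy3, the adenylyl cyclase of cilia, with 1414, 1483 and 1909 counts in morphine and 1573, 1600 and 1494 in saline (log2 fold change 0.15, standard error 0.061, edgeR unadjusted p = 0.038, adjusted p = 0.63), and without saline 1 it had an edgeR unadjusted p of 0.11. Gnal, the G protein alpha subunit, had 3555, 3376 and 4773 counts in morphine and 4365, 4116 and 3606 in saline (log2 fold change 0.058, standard error 0.053). The channel subunits had few counts. Cnga4 had 23, 20 and 32 counts in morphine and 34, 25 and 29 in saline (log2 fold change -0.13, standard error 0.25), Cnga2 had 2, 14 and 8 in morphine and 13, 6 and 11 in saline, and Cngb1 had 1, 2 and 2 in morphine and 10, 2 and 2 in saline.

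Of these 13 signalling genes, 4 were over 2 times as high in saline 1 as in any other library. They were Omp, Stoml3, Cngb1 and Pde1c, a calmodulin-dependent phosphodiesterase. Stoml3 and Cngb1 had few counts, 22 and 10 in saline 1 and at most 3 and 2 elsewhere. The share of all genes this much higher in saline 1 was not determined. Pde1c had 163, 162 and 173 counts in morphine and 487, 147 and 131 in saline, at a log2 fold change of -0.46 over all libraries (edgeR unadjusted p = 0.25). Without saline 1 its direction turned, to 0.31 (edgeR unadjusted p = 0.046, adjusted p = 0.42). Of the receptor transport genes, Rtp1, which carries receptors to the cell surface, had 4, 8 and 6 counts in morphine and 5, 5 and 5 in saline, Rtp2 had 2, 2 and 2 in morphine and 5, 2 and 0 in saline, and Reep1, also a gene of axons, was the only one tested (log2 fold change 0.037, standard error 0.047).

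All 11 genes of receptor gene choice, the regulators by which a sensory neuron settles on 1 receptor, were tested. An unadjusted p under 0.05 was found for 0 of them in either direction, beside 2.77% of all tested genes higher and 4.96% lower, at a median log2 fold change of -0.037. Without saline 1, Ldb1, a cofactor of Lhx2, had a log2 fold change of 0.16 (edgeR unadjusted p = 0.018, adjusted p = 0.28). In that fit 4.14% of all tested genes were higher at an unadjusted p under 0.05. Lhx2, a homeobox factor of receptor enhancers, had 770, 685 and 1039 counts in morphine and 802, 891 and 762 in saline (log2 fold change 0.12, standard error 0.090). Lbr, the lamin B receptor, had 263, 272 and 355 in morphine and 455, 382 and 299 in saline (log2 fold change -0.24, standard error 0.11, edgeR unadjusted p = 0.053). Ebf3 had 15, 14 and 25 counts in morphine and 56, 23 and 16 in saline, and was highest in saline 1.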

How the data were processed

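RNA of the mPFC was sequenced as rRNA-depleted, directional libraries, 3 from morphine and 3 from saline mice, and the authors deposited 1 table that gives each gene a count and an FPKM in every library. HTSeq 0.11.2, StringTie 1.3.3, HISAT2 2.1.0 and cutadapt 1.9.3 are among the tools in the submitters' processing notes, with mm10 as the build, and the study's methods describe FPKM as summed over transcripts. In the table all 490 FPKM values above 0 of the 226 members equal CPM per kilobase of annotated exon within 0.1%. The deposited counts are not normalized, and the sources used here do not state whether counting used strand. Groups came from the sample labels.

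Genes that reached 10 counts in 3 or more of the 6 libraries were TMM-normalized and tested with edgeR 4.0.16 in R 4.3.3 (quasi-likelihood F test on group alone), after the fit had been tested on simulated data. Sums were divided by library totals, with 95% Wilson intervals from scipy 1.17.1. Expected numbers at equal depth are exact hypergeometric expectations. Gene models, exon overlap, coding identity (Biopython 1.88) and shared 100-base runs were read from GENCODE M21. Classes follow RefSeq synonyms, with MOR families up to 42 taken as class I. Alternatives were DESeq2 1.42.0, RLE factors, other filters, limma 3.58.1 on log2(FPKM + 0.1) and log2(FPKM + 1), the replicate number as a block, and each library left out. Named genes were the 15 tested members of highest mean FPKM (12 were available), tested members at an unadjusted p under 0.05, the 5 members of highest summed count, 12 members with a function known elsewhere, and genes of the odorant signalling, receptor transport and receptor gene choice lists, of which only a part is described. Members named for their counts in saline 1 were chosen after their values were seen. The members and lists were chosen with earlier results of these data known.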

Additional observations from a re-analysis of the deposited data

How the results depend on the processing

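The summed CPM of the 226 genes kept a log2 ratio below 0 under every alternative run, from -0.33 to -0.14, and moved by less than the spread between replicates of 0.15 (log2) each time. With 1 library left out it ran from -0.29 to -0.14. The raw sums, the sum without the highest 3 genes, and the sum without both saline 1 and Olfr1564 were added after seeing the data and gave -0.32, -0.31 and -0.19. The difference in the number of genes counted was -7.33 and became -1.67 with at least 2 counts and -1 with at least 10 counts. It was -4.31 at equal depth and -9.83 to -5.33 with 1 library left out. The median log2 fold change of the tested genes stayed below 0, at -0.44 to -0.084 with 1 library left out. The 1 gene at an unadjusted p under 0.05 became 4 with no filter (Olfr111, Olfr1259, Olfr32 and Olfr372, all lower, of 226, where 5.16% of all genes were lower), 0 with limma on log2(FPKM + 0.1), 0 on log2(FPKM + 1), and 0 to 1 with 1 library left out, 0 without morphine 1. Genes whose groups do not overlap numbered 0, but 3 with no filter (Olfr878 higher, Olfr145 and Olfr318 lower, the last at 0, 0 and 0 counts in morphine against 1, 1 and 1 in saline; 10.6% of all genes) and 1 to 4 with 1 library left out, where 19.7% to 31% of all genes tested did not overlap.

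Of 150 fold changes of single genes under alternatives, 134 kept their direction and side of the threshold, 5 lost it, all of them Olfr111, and 2 gained it, both Olfr1564. The other 9 changed sign: Olfr691 without morphine 3, Olfr690 without saline 3, Olfr539 without morphine 1, morphine 2 or saline 3, Olfr1033 without morphine 2 or saline 3, and Olfr560 without morphine 3 and, at 0.0066, with limma on log2(FPKM + 0.1). With 1 library left out, log2 fold changes ran from -0.50 to 0.088 for Olfr691, from -0.58 to 0.15 for Olfr690, from -0.084 to 0.30 for Olfr539, from -0.54 to 0.34 for Olfr1033, from -0.52 to 0.10 for Olfr560, and from -1.69 to -0.55 for Olfr111. The cause was not tested.

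With the replicate block, 1 of the 12 genes was at an unadjusted p under 0.05 and the median log2 fold change was -0.25. Deviations of same-numbered libraries correlated at -0.021 to 0.015, and those of differently numbered libraries at -0.035 to 0.044. This gives no sign of pairing by number, but 3 libraries per group are too few to settle it. Counts this low limit the precision: 192 of the 226 genes had fewer than 10 counts in all.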
